A study of Mus musculus with 7 samples.

Results

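The 8 genes described here mark regulatory T cells, the CD4+ lymphocytes that restrain other T cells. They were taken by symbol, as Foxp3, Il2ra, Ctla4, Tnfrsf4, Tnfrsf18, Tnfrsf9, Nrp1 and Icos, from a table of 16734 genes, and each had 1 row. The 7 libraries held RNA of the whole thymus, from mice aged 4 weeks. There were 2 libraries from mice homozygous for an Ikaros allele without the fourth DNA-binding zinc finger (ZnF4-/-), 2 from mice homozygous for an allele without the first (ZnF1-/-), and 3 from wild type C57BL/6 mice. Ikaros, the product of Ikzf1, is a zinc finger transcription factor of lymphocytes. For the mutants the strain background is not stated in the labels, and for no library is the number of animals or any pooling. The mutations are carried by every cell of the animal, so the tissue holds mutant thymocytes as well as mutant regulatory T cells.

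Regulatory T cells arise in the thymus from CD4+ thymocytes that bind self antigen strongly. Antigen receptor and CD28 signals first induce the high-affinity interleukin 2 receptor and receptors of the tumour necrosis factor receptor family on precursors. Interleukin 2, acting through STAT5, then promotes expression of Foxp3, the factor that defines the lineage. In the thymus several of these genes have other sources: Il2ra is also expressed by early thymocytes that lack CD4 and CD8, and Nrp1, Icos and Tnfrsf9 by other activated T cells or by non-T cells. In bulk RNA a change in the number of cells of a type cannot be told apart from a change in RNA per cell.

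Levels are in RPKM, exonic reads scaled by transcript length and by sequencing depth. Between 10185 and 10695 genes per library were at 1 RPKM or more. The replicate number marks a sequencing batch, since every replicate 1 has 76 bp reads and replicates 2, 2A and 2B have 50 bp reads from another instrument. Sex went with it: Xist stood between 90.6 and 109 RPKM where reads were 76 bp long, and between 0.01 and 0.03 RPKM elsewhere. Read length and sex therefore cannot be told apart here. Low values of the 76 bp libraries fell on steps of whole reads, and the best-fitting depth was 6.31 M reads in ZnF4-/-, 14.3 M in ZnF1-/- and 20.1 M in wild type. At those depths the member with the fewest reads was Ctla4 in ZnF4-/- (about 90 reads), and Foxp3 had about 116 reads in ZnF4-/-, 155 in ZnF1-/- and 280 in wild type. For 50 bp libraries depth is unknown. Ikzf1 itself was at 238 and 257 RPKM in ZnF4-/-, 183 and 194 RPKM in ZnF1-/- and 142 to 175 RPKM in wild type, a level for the whole gene that is no check of the deleted exons.

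In ZnF4-/- thymus most of these genes stood above wild type. In the fit that ignored the sequencing batch 0 of the 8 passed, where 2.54% of all genes did. With the batch taken into account 5 of the 8 passed as higher, where 6.1% of all genes did. They were Nrp1, the 3 tumour necrosis factor receptor family genes Tnfrsf4, Tnfrsf18 and Tnfrsf9, and Ctla4, by 0.67 to 1.15 log2 units. The call of Ctla4 held in 1 of 7 such fits with a library left out. Foxp3 and Icos were higher by less and did not pass, and Il2ra was lower and did not pass. In ZnF1-/- thymus none of the 8 passed, and Tnfrsf4 had the lowest values of any group. Of all genes 0.0857% passed there without the batch and 0.876% with it, so 0 of 8 does not set these genes apart. Between the mutants Tnfrsf4 alone of the 8 differed in a fit that ignored the batch, where 2.34% of all genes did. That call was lost without wild type replicate 2A or 2B and held without wild type replicate 1. With the batch taken into account 4 of the 8 differed, where 7.29% of all genes did.

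**Figure D1:**
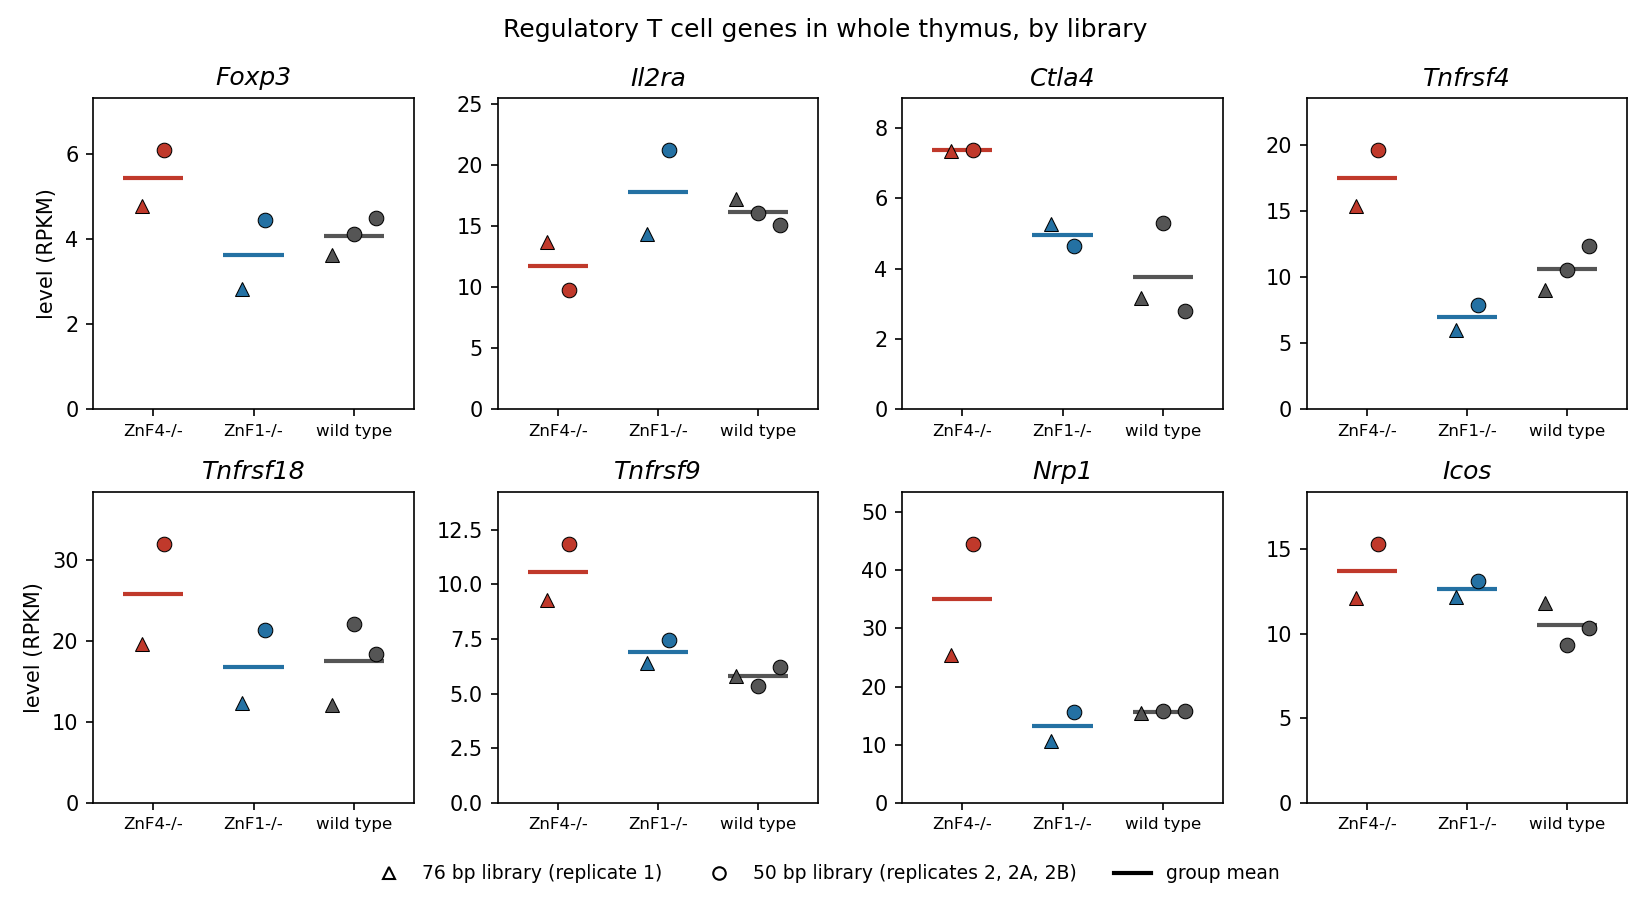
Level of each of the 8 genes in RPKM (vertical axis, from 0) in ZnF4-/- (2 libraries), ZnF1-/- (2) and wild type (3). Triangles are 76 bp libraries, circles are 50 bp libraries and lines are group means. Both ZnF4-/- libraries lie above every wild type library for 6 genes and below every one for Il2ra, and Tnfrsf18 overlaps through the 76 bp ZnF4-/- library.

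Differences were tested with limma on log2(RPKM + 0.5) over the 10498 genes that averaged 1 RPKM or more, and all 8 members were among them. One fit took no account of the replicate number, and a second, called the blocked fit, held it as a term. A gene was called at an adjusted p (Benjamini and Hochberg over all genes tested) under 0.05. Adding 0.5 shrinks the fold changes of low genes. In ZnF4-/- against wild type 0 of the 8 were called without the block, where 2.54% of all genes were (2.24% as higher), and 4 had an unadjusted p under 0.05, where 10.1% of all genes had. In the blocked fit 5 of 8 were called and all 5 rose, where 8.22% of all genes were called in either direction, 6.1% as higher and 2.12% as lower. Both ZnF4-/- libraries lay above all 3 wild type libraries for 6 of 8 members, against 12.5% of all genes, and below them for 1, against 10.6%. Within each read-length batch 7 members were higher in ZnF4-/- than in every wild type library of that batch, against 20.6% of all genes, and Il2ra was lower, against 24.3%. The median log2 fold change was 0.62 over the 8 members and -0.05 over all genes.

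Foxp3 (chromosome X, 7156802 to 7172369, build NCBIM37, which is mm9), the transcription factor of the regulatory T cell lineage, was at 4.77 and 6.1 RPKM in ZnF4-/-, at 2.82 and 4.44 RPKM in ZnF1-/- and at 3.62, 4.11 and 4.49 RPKM in wild type, each in the order of the replicates. The ZnF4-/- values were the 2 highest of the 7, by a small margin, and the ZnF1-/- values overlapped those of wild type. The log2 fold change in ZnF4-/- was 0.37 ± 0.21 (SE), with a 95% interval of -0.13 to 0.87 and a limma adjusted p of 0.747. In the blocked fit it was 0.43 ± 0.13 (adjusted p = 0.0976), so Foxp3 did not pass in either fit. Within batches, ZnF4-/- exceeded wild type by 0.36 log2 units in the 76 bp libraries and by 0.46 in the 50 bp libraries.

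Il2ra (chromosome 2, 11564419 to 11614818) encodes the alpha chain of the interleukin 2 receptor, also called CD25. It was at 13.7 and 9.72 RPKM in ZnF4-/-, at 14.4 and 21.2 RPKM in ZnF1-/- and at 17.2, 16.0 and 15.1 RPKM in wild type. It was the 1 member with its 2 lowest values in ZnF4-/-. The log2 fold change in ZnF4-/- was -0.46 ± 0.22 (limma adjusted p = 0.572; blocked -0.47 ± 0.19, adjusted p = 0.221), and Il2ra was not called. The difference from wild type was -0.32 within the 76 bp libraries and -0.65 within the 50 bp libraries. In ZnF1-/- the direction differed by batch, at -0.25 in the 76 bp libraries and 0.44 in the 50 bp libraries.

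The other chains of the receptor were examined as well. Il2rb, the beta chain, which carries the signal, was at 27.2 and 38.0 RPKM in ZnF4-/-, at 8.89 and 13.5 RPKM in ZnF1-/- and at 9.7, 16.1 and 13.6 RPKM in wild type. It rose in ZnF4-/- in the blocked fit (log2 fold change 1.38 ± 0.11, adjusted p = 0.00029; 1.29 and adjusted p = 0.0692 without the block). Il2rg, the chain shared with other cytokine receptors, had a log2 fold change of -0.08 ± 0.19. Cish, a STAT5 target that restrains cytokine signalling, rose in the blocked fit by 1.03 ± 0.14 (adjusted p = 0.00384; 0.356 without the block), and so did the kinase gene Jak3 (0.73 ± 0.14, adjusted p = 0.0142; 0.473 without) and Socs3 (0.79 ± 0.18, adjusted p = 0.0297; 0.599 without). Stat5a and Stat5b, at -0.14 and -0.20, were not called. Socs1, Pim1 and Bcl2 of the same list, at -0.63, -0.31 and 0.06, were not called in either fit. Of the 12 tested genes of this pathway 4 rose and 0 fell in the blocked fit, 0 were called without it, 3 had an unadjusted p under 0.05, and the median log2 fold change was 0.05. Il2 itself was at 0.5 and 0.04 RPKM in ZnF4-/- and at no more than 0.06 RPKM in the other 5 libraries.

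Ctla4 and Icos encode receptors of the CD28 family: CTLA-4 binds the same ligands as CD28 and restrains T cell activation, and ICOS is a costimulator of activated T cells. The genes lie next to each other on chromosome 1, with Cd28 before them (Cd28 60773644 to 60830203, Ctla4 60943844 to 60972676, Icos 61034771 to 61057164). Ctla4 was at 7.36 and 7.38 RPKM in ZnF4-/-, at 5.26 and 4.63 RPKM in ZnF1-/- and at 3.17, 5.31 and 2.78 RPKM in wild type. The ZnF4-/- values were the highest, and wild type replicate 2A stood well above the other wild type libraries. Ctla4 rose in ZnF4-/- in the blocked fit by 0.94 ± 0.23 log2 units (limma adjusted p = 0.0454; 0.93 ± 0.25 and adjusted p = 0.15 without the block). That call depended on single libraries: with any 1 library left out of the blocked fit the adjusted p ran from 0.00249, without wild type replicate 2A, to 0.151, without wild type replicate 1, and it was under 0.05 in 1 of 7 cases.

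Icos was at 12.1 and 15.3 RPKM in ZnF4-/-, at 12.2 and 13.1 RPKM in ZnF1-/- and at 11.8, 9.35 and 10.4 RPKM in wild type. Both mutants lay above wild type in every library, but the 76 bp libraries of the 3 groups were nearly level. The log2 fold change in ZnF4-/- was 0.37 ± 0.17 (limma adjusted p = 0.542; blocked 0.37 ± 0.14, adjusted p = 0.182), with a 95% interval of -0.02 to 0.76. Within batches it was 0.04 in the 76 bp and 0.61 in the 50 bp libraries. Cd28, the neighbour and founding member of the family, was more abundant at 70.4 and 90.0 RPKM in ZnF4-/-, 64.5 and 72.5 RPKM in ZnF1-/- and 74.2 to 77.0 RPKM in wild type. Its log2 fold change in ZnF4-/- was 0.07 ± 0.17 with a 95% interval of -0.32 to 0.46, which overlaps those of Icos and of Ctla4 (0.35 to 1.51), and the difference between the 3 neighbours was not tested.

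Tnfrsf4, Tnfrsf18 and Tnfrsf9 encode OX40, GITR and CD137, costimulatory receptors of the tumour necrosis factor receptor family that signal through TRAF adaptors to NF-kB. All 3 lie on chromosome 4, Tnfrsf4 (155387952 to 155390721) and Tnfrsf18 (155400273 to 155403004) 9551 bp apart, and Tnfrsf9 (150288671 to 150320211) at a distance from them. Tnfrsf4 was at 15.4 and 19.7 RPKM in ZnF4-/-, at 6.0 and 7.91 RPKM in ZnF1-/- and at 9.02, 10.5 and 12.3 RPKM in wild type. The 3 groups did not overlap, with ZnF4-/- the highest and ZnF1-/- the lowest. In ZnF4-/- Tnfrsf4 rose in the blocked fit by 0.75 ± 0.11 log2 units (limma adjusted p = 0.00402; 0.70 ± 0.20 and adjusted p = 0.199 without the block), and by much the same within the 76 bp (0.74) and the 50 bp libraries (0.76).

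Tnfrsf18 was at 19.6 and 32.0 RPKM in ZnF4-/-, at 12.3 and 21.4 RPKM in ZnF1-/- and at 12.2, 22.1 and 18.4 RPKM in wild type. The 76 bp library was the lower in every group, so the groups overlapped, yet within each batch the ZnF4-/- library was the highest. Tnfrsf18 rose in the blocked fit by 0.67 ± 0.11 log2 units (limma adjusted p = 0.0078), against 0.55 ± 0.35 (adjusted p = 0.789) without the block. The difference was 0.67 in the 76 bp and 0.66 in the 50 bp libraries.

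Tnfrsf9 was at 9.27 and 11.9 RPKM in ZnF4-/-, at 6.41 and 7.43 RPKM in ZnF1-/- and at 5.79, 5.34 and 6.22 RPKM in wild type. The wild type libraries were close together and both mutants lay above them. Tnfrsf9 rose in ZnF4-/- in the blocked fit by 0.84 ± 0.13 log2 units (limma adjusted p = 0.00567), and without the block it just missed the threshold (0.81 ± 0.16, adjusted p = 0.0526). Within batches the difference was 0.64 in the 76 bp and 0.98 in the 50 bp libraries.

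Nrp1 (chromosome 8, 130882973 to 131029362) encodes neuropilin 1, a receptor for semaphorins and vascular endothelial growth factor that is used as a surface marker of regulatory T cells made in the thymus. It was at 25.5 and 44.6 RPKM in ZnF4-/-, at 10.6 and 15.7 RPKM in ZnF1-/- and at 15.4, 15.8 and 15.8 RPKM in wild type. The wild type libraries were almost equal, and the 50 bp ZnF4-/- library stood far above the 76 bp one. Nrp1 had the largest fold change of the 8 and rose in the blocked fit by 1.15 ± 0.16 log2 units (limma adjusted p = 0.00409; 1.08 ± 0.26 and adjusted p = 0.11 without the block). The difference was 0.70 within the 76 bp and 1.47 within the 50 bp libraries. The rises of Nrp1, Tnfrsf4, Tnfrsf18 and Tnfrsf9 were called in the blocked fit whichever of the 7 libraries was left out, with adjusted p from 0.000334 to 0.0396.

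**Figure D2:**
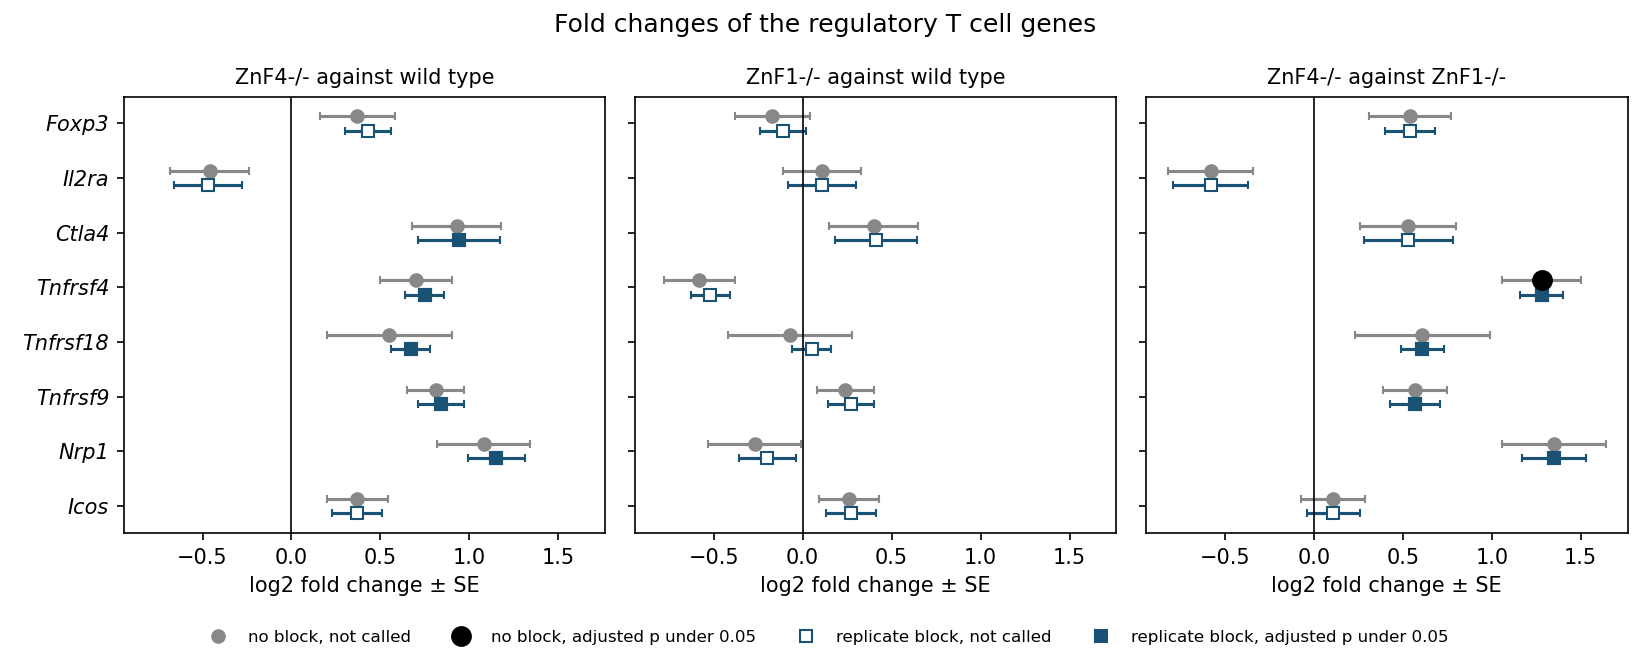
Log2 fold change ± SE (horizontal axis) of the 8 genes (rows) in 3 comparisons, from the fit without the block (circles) and the blocked fit (squares). Black circles and filled squares have an adjusted p under 0.05: 5 of 8 genes with the block in ZnF4-/- against wild type, 0 in ZnF1-/- against wild type, and 4 with the block and 1 without in ZnF4-/- against ZnF1-/-.

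In ZnF1-/- against wild type 0 of 8 genes were called by limma with or without the block, where 0.0857% of all genes were without it (0.0762% higher, 0.00953% lower) and 0.876% with it, and 1 had an unadjusted p under 0.05, where 3.85% of all genes had. That gene was Tnfrsf4, with a log2 fold change of -0.58 ± 0.20 (limma adjusted p = 0.985; blocked -0.52 ± 0.11, adjusted p = 0.0801). Both ZnF1-/- libraries lay below every wild type library for Tnfrsf4, and above every one for Tnfrsf9 and Icos, against 6.99% and 6.85% of all genes. Ctla4 had a log2 fold change of 0.40 with a 95% interval of -0.18 to 0.98, Foxp3 of -0.17 (-0.67 to 0.33), Nrp1 of -0.27 (-0.88 to 0.34), and Tnfrsf18 of -0.07 (-0.88 to 0.74). The interval of Ctla4 is wide enough to hold its fold change in ZnF4-/-. For Tnfrsf18 the blocked estimate was 0.05 ± 0.11 (SE), against 0.67 ± 0.11 in ZnF4-/-. The median over the 8 genes was 0.02, against -0.02 over all genes.

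Set against each other, the mutants differed most in Tnfrsf4 and Nrp1. Tnfrsf4 was higher in ZnF4-/- than in ZnF1-/- by 1.28 ± 0.22 log2 units (limma adjusted p = 0.0295; blocked adjusted p = 0.000469), by 1.29 within the 76 bp and 1.26 within the 50 bp libraries. Without the block this was the 1 call among the 8, where 2.34% of all genes were called, 2.02% as higher and 0.324% as lower, and it was lost without either ZnF1-/- library, without either ZnF4-/- library, or without wild type replicate 2A or 2B, with adjusted p of 0.0645 to 0.213. Unadjusted p was under 0.05 for 4 of 8, against 9.17% of all genes. Within both batches 6 were higher, against 26.6% of all genes, and Il2ra lower, against 37.3%. In the blocked fit 4 of 8 were called, all higher in ZnF4-/-, where 7.29% of all genes were called, 5.19% as higher and 2.1% as lower. Besides Tnfrsf4 they were Nrp1 (1.35 ± 0.18, adjusted p = 0.00294), Tnfrsf18 (0.61 ± 0.12, adjusted p = 0.0173) and Tnfrsf9 (0.57 ± 0.14, adjusted p = 0.045). That count was 2 without ZnF1-/- replicate 2. Foxp3, at 0.54 ± 0.23, and Il2ra, at -0.58 ± 0.24, did not pass (limma adjusted p = 0.561 and 0.511, blocked 0.064 and 0.174). This comparison shares its ZnF4-/- and ZnF1-/- libraries with the 2 above and is not independent of them.

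The order of levels, which RPKM allows between genes, differed between the groups. In ZnF4-/- Nrp1 was first at 35.0 ± 13.5 RPKM (SD, n = 2), then Tnfrsf18 at 25.8 ± 8.77, Tnfrsf4 at 17.5 ± 3.01, Icos at 13.7 ± 2.28, Il2ra at 11.7 ± 2.79, Tnfrsf9 at 10.6 ± 1.83, Ctla4 at 7.37 ± 0.0141 and Foxp3 at 5.43 ± 0.94 RPKM. The ranges of Nrp1 and Tnfrsf18 overlapped there, as did those of Tnfrsf18 with Tnfrsf4, by 0.01 RPKM, of Icos with Il2ra and of Il2ra with Tnfrsf9. In ZnF1-/- Il2ra was first at 17.8 ± 4.86 RPKM, then Tnfrsf18 at 16.9 ± 6.46, Nrp1 at 13.1 ± 3.56 and Icos at 12.6 ± 0.643 (SD, n = 2), each overlapping the next. Below them Tnfrsf4, at 6.96 ± 1.35 RPKM, overlapped Tnfrsf9, at 6.92 ± 0.721 RPKM, and Ctla4 and Foxp3 followed, apart from each other, at 4.95 ± 0.445 and 3.63 ± 1.15 RPKM. In wild type Tnfrsf18 was first at 17.5 ± 5.03 RPKM (SD, n = 3), and its range held those of Il2ra and Nrp1, at 16.1 ± 1.06 and 15.7 ± 0.197 RPKM. Tnfrsf4 and Icos overlapped at 10.6 ± 1.66 and 10.5 ± 1.23 RPKM, and Tnfrsf9 stood alone at 5.78 ± 0.44 RPKM. Foxp3 and Ctla4 were the lowest at 4.07 ± 0.436 and 3.75 ± 1.36 RPKM and overlapped. Per Foxp3 transcript, Nrp1 was at 5.34 and 7.31 in ZnF4-/-, 3.77 and 3.53 in ZnF1-/- and 3.51 to 4.27 in wild type, as a ratio of RPKM. The ratio of Il2ra to Foxp3 was 2.87 and 1.59 in ZnF4-/-, 5.09 and 4.78 in ZnF1-/- and 3.36 to 4.75 in wild type. Tnfrsf4 (3.23 and 3.22) and Tnfrsf9 (1.94 in both) also had ZnF4-/- ratios outside wild type, at 2.49 to 2.75 and 1.3 to 1.6. Tnfrsf18 (4.12 and 5.25) and Icos (2.54 and 2.51) lay within wild type, at 3.36 to 5.38 and 2.27 to 3.26. Ctla4 (1.54 and 1.21) overlapped it, at 0.62 to 1.29. The ratios were not tested.

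Promoter windows were read for the letters TGGGAA, the core of the sequence that Ikaros binds, on both strands. A window runs from 250 bases before to 50 after an annotated start, and 9 windows of 7 of the 8 genes were taken from a table of RefSeq promoters (build GRCm38.p6), each found once on its chromosome in NCBIM37. No window of Icos was used here. The letters stood in 2 of the 9 windows, against 25.6% of 32851 windows of all genes. They are shown with 1 window of Tnfrsf4, the member that differed most clearly between the mutants, which holds none. Capitals mark the letters or their reverse complement, and the coordinates are of NCBIM37, plus strand.
Foxp3, upstream start, chrX:7156552-7156851: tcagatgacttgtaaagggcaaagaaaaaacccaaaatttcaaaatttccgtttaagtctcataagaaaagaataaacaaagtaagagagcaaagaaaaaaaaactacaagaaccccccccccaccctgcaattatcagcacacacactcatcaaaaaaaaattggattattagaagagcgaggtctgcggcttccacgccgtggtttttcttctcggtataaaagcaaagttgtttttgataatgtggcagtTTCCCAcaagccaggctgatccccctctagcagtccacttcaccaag
Tnfrsf9, downstream start, chr4:150301858-150302157: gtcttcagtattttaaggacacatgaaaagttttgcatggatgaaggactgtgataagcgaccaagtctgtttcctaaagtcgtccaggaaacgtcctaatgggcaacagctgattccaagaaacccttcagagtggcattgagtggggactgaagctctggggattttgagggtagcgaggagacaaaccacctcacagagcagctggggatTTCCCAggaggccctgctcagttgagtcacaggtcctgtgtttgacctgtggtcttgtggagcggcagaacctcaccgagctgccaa
Tnfrsf4, chr4:155387554-155387853: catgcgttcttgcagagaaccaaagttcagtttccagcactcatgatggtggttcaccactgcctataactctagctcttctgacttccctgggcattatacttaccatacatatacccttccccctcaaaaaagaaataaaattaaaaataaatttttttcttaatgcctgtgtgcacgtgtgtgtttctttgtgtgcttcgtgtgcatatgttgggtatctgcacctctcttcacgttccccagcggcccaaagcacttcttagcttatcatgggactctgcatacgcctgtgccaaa
The match in Foxp3 lies just after the annotated start and that in Tnfrsf9 just before it. The windows of Nrp1, Tnfrsf18, Ctla4 and Il2ra and the other windows of Foxp3 and Tnfrsf9 held no match.

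Other genes known from regulatory T cells were examined as a list of 24, of which 15 were tested. In ZnF4-/- against wild type 3 rose without the block and 5 with it, 0 fell in either, and the median log2 fold change was 0.38. Of all genes tested 2.24% rose and 0.305% fell without the block, and 6.1% rose and 2.12% fell with it. Their median was -0.05. The same shares apply to the counts of the other lists in that comparison. Ccr8, a chemokine receptor of activated regulatory T cells, was at 17.0 and 26.5 RPKM in ZnF4-/-, at 4.98 and 4.15 RPKM in ZnF1-/- and at 6.91, 8.44 and 8.95 RPKM in wild type (log2 fold change in ZnF4-/- 1.34 ± 0.22, limma adjusted p = 0.0244). Itgae, the integrin chain CD103, was at 12.2 and 17.8 RPKM in ZnF4-/-, at 2.92 and 3.79 RPKM in ZnF1-/- and at 5.02, 6.53 and 5.67 RPKM in wild type (1.30 ± 0.21, limma adjusted p = 0.023). For both genes the ZnF4-/- libraries were the highest and the ZnF1-/- libraries the lowest, the order seen for Tnfrsf4. That order was not particular to these genes, since S1pr1, Slfn1, Ms4a6b and Nkg7, markers of other lymphocytes described below, had it too. The share of all genes with it was not counted. Ikzf4, which encodes the Ikaros relative Eos, a partner of Foxp3, rose as well (1.24 ± 0.18, limma adjusted p = 0.0167). Ikzf2, the gene of Helios, rose in the blocked fit (0.67 ± 0.13, adjusted p = 0.0181; 0.283 without the block), and so did Tnfrsf1b, the second receptor of tumour necrosis factor (0.72 ± 0.10, adjusted p = 0.0032; 0.166 without).

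Not every gene of that list was higher. Folr4, the folate receptor family gene of regulatory T cells, was at 11.6 and 12.0 RPKM in ZnF4-/-, 14.0 and 16.9 RPKM in ZnF1-/- and 10.1 to 18.1 RPKM in wild type, and Ccr4 and Tgfb1 had log2 fold changes of -0.04 and 0.12. Il10 was at no more than 0.26 RPKM in any library. In ZnF1-/- 0 of the 15 were called by limma in either fit, where 0.0857% of all genes were without the block and 0.876% with it. An unadjusted p under 0.05 was found for 5 of them, against 3.85% of all genes, and the median was -0.24. In ZnF4-/- against ZnF1-/- 3 were higher without the block and 8 with it, with a median of 0.58. Of all genes 2.02% and 5.19% were higher in those fits. Those called in the blocked fit alone included Nt5e, the ectoenzyme CD73, by 1.09 ± 0.17 (adjusted p = 0.00739; 0.0797 without the block) and Gpr83, an orphan receptor gene of regulatory T cells, by 0.98 ± 0.18 (adjusted p = 0.0148; 0.428 without).

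The ligands of these receptors were scarce. Tnfsf18, the ligand of GITR, was at no more than 0.02 RPKM, and Tnfsf4, the ligand of OX40, was at 0.52 and 0.96 RPKM in ZnF4-/-, at 0 and 0.05 RPKM in ZnF1-/- and at 0.09 to 0.11 RPKM in wild type, below the level tested. Tnfsf9, the ligand of CD137, was at 0.78 and 2.06 RPKM in ZnF4-/-, at 2.05 and 1.99 RPKM in ZnF1-/- and at 2.14 to 3.23 RPKM in wild type (log2 fold change in ZnF4-/- -0.77 ± 0.31, limma adjusted p = 0.44). Sema3f, a secreted semaphorin that binds neuropilins, was the 1 ligand called without the block. It was at 3.03 and 3.08 RPKM in ZnF4-/-, at 0.38 and 0.6 RPKM in ZnF1-/- and at 0.22, 0.6 and 0.35 RPKM in wild type (2.02 ± 0.25, limma adjusted p = 0.00627). Of the other listed ligands of Nrp1, the semaphorin gene Sema3a was at no more than 0.05 RPKM in any library. Vegfa, the gene of vascular endothelial growth factor, was not called in ZnF4-/- (-0.25 ± 0.19, limma adjusted p = 0.879). Of the 10 ligands 5 were tested.

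Among 16 genes of TRAF adaptors and NF-kB 0 were called without the block in ZnF4-/-, 2 had an unadjusted p under 0.05 by limma, and 3 rose and 0 fell in the blocked fit, with a median of 0.02. The 3 were Traf5, an adaptor of OX40 and GITR (0.83 ± 0.14, adjusted p = 0.011; 0.216 without the block), Nfkb2 (0.56 ± 0.10, adjusted p = 0.0113; 0.821 without) and Relb (0.60 ± 0.12, adjusted p = 0.022; 0.463 without), the last pair forming the dimer of the non-canonical pathway. Of 24 tested genes that regulate Foxp3 or act with it, 0 were called without the block in ZnF4-/-, 6 had an unadjusted p under 0.05 by limma, and 6 rose in the blocked fit, with a median of 0.02. They were Nr4a3, induced by antigen receptor signals (0.83 ± 0.12, adjusted p = 0.00409; 0.142 without the block), Bach2 (0.73 ± 0.11, adjusted p = 0.0056; 0.0812 without), Tgfbr2 (0.56 ± 0.09), Nfatc2 (0.53 ± 0.13), Tet2 (0.43 ± 0.11) and Foxo1 (0.40 ± 0.09), the last 4 with blocked adjusted p of 0.00891 to 0.0436 and 0.239 to 0.541 without the block. Satb1 and Ets1, the most abundant of that list, were not called. In ZnF1-/- the 1 call in these lists was a fall of Smad3, a mediator of transforming growth factor beta signals, in the blocked fit (-0.63 ± 0.09, adjusted p = 0.0248; 0.809 without).

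Of 12 tested genes of the CD28 and tumour necrosis factor receptor families outside the 8, 1 rose in ZnF4-/- without the block, and 3 rose and 1 fell with it. Tnfrsf8, the gene of CD30, was at 8.59 and 10.6 RPKM in ZnF4-/-, at 4.56 and 7.96 RPKM in ZnF1-/- and at 3.0, 3.22 and 3.91 RPKM in wild type (1.38 ± 0.24, limma adjusted p = 0.0326). Pdcd1, the inhibitory receptor PD-1, rose in the blocked fit (0.70 ± 0.11, adjusted p = 0.00642; 0.325 without), and Fas fell (-0.48 ± 0.12, adjusted p = 0.0419; 0.458 without). Tnfrsf25 had lower values in both mutants, at 1.7 and 1.7 RPKM in ZnF4-/- and 1.41 and 1.94 RPKM in ZnF1-/-, against 2.01, 4.15 and 3.66 RPKM in wild type, and was not called. The median log2 fold change of the 12 was 0.25, and 8 of 12 were above 0.

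**Figure D3:**
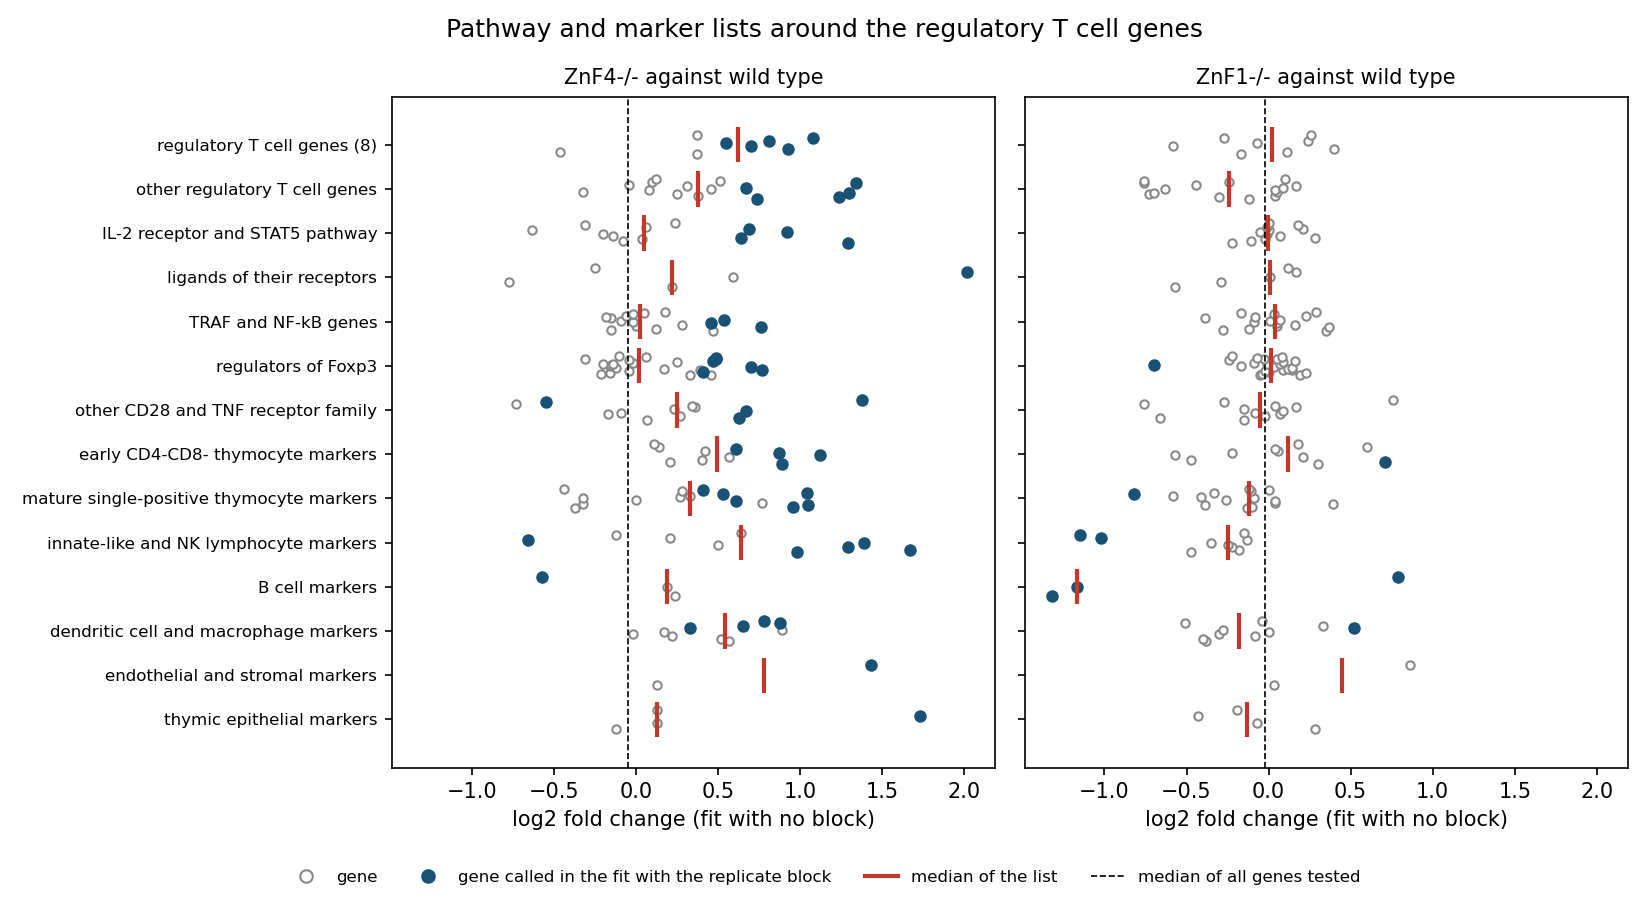
Log2 fold change from the fit without the block (horizontal axis) of each tested gene in 14 lists (rows), for ZnF4-/- against wild type and ZnF1-/- against wild type. Filled points were called in the blocked fit, red bars are list medians and the dashed line is the median of all genes. In ZnF4-/- the 8 regulatory T cell genes have a median of 0.62, and marker lists of mature, innate-like and early thymocytes and of dendritic cells also lie right of the dashed line.

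Markers of other cells moved in the same libraries. In ZnF4-/- 6 of 15 markers of mature single-positive thymocytes rose in the blocked fit and 0 fell, with a median of 0.33. Those that rose were Ccr7, S1pr1, Slfn1, Ms4a6b, Il7r and Foxo1, and S1pr1 and Slfn1 passed without the block as well. The summed level of the 15 was 1120 to 1310 RPKM in ZnF4-/-, 1190 to 1320 RPKM in ZnF1-/- and 1310 to 1480 RPKM in wild type. Most of each sum was Cd4 and Cd52, which were not called in ZnF4-/-. Of 9 tested innate-like and NK markers 4 rose and 1 fell (median 0.64): those that rose were Klrd1, Cxcr3, Nkg7 and Il2rb, the receptor chain described above, with sums of 222 to 233 RPKM in ZnF4-/-, 188 to 222 RPKM in ZnF1-/- and 210 to 264 RPKM in wild type. Of 10 tested markers of dendritic cells and macrophages 4 rose in the blocked fit, and 0 were called without the block (median 0.55). The 4 were Bst2, C1qa, Ccl22 and Tcf4. In the blocked fit Bst2 also rose in ZnF1-/-, by 0.66 ± 0.10 (adjusted p = 0.0265), against 0.46 ± 0.10 in ZnF4-/-. The list summed to 135 to 177 RPKM in ZnF4-/-, 87.4 to 127 RPKM in ZnF1-/- and 96.5 to 113 RPKM in wild type. Tcf4, shared by plasmacytoid dendritic cells and other lymphocytes, was among those that rose, whereas Siglech, which is restricted to plasmacytoid dendritic cells and some macrophages, was at 0.16 and 0.06 RPKM in ZnF4-/-, 1.32 and 0.75 RPKM in ZnF1-/- and 0.53 to 0.96 RPKM in wild type. The part of these cells, and of those below, in the values of the 8 genes was not tested.

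Early thymocytes without CD4 and CD8, another source of Il2ra, had 4 of 10 tested markers that rose in ZnF4-/- in the blocked fit (Kit, Notch1, Dtx1 and Il7r; median 0.49), with sums of 189 to 199 RPKM in ZnF4-/-, 92.4 to 134 RPKM in ZnF1-/- and 96.0 to 149 RPKM in wild type. Notch1, at 82.5 and 93.0 RPKM in ZnF4-/-, 31.1 and 53.8 RPKM in ZnF1-/- and 34.6, 63.2 and 49.6 RPKM in wild type, was the largest part of each sum. Kit, the stem cell factor receptor, was at 4.12 and 4.69 RPKM in ZnF4-/-, at 2.66 and 2.85 RPKM in ZnF1-/- and at 2.02 to 2.31 RPKM in wild type (0.89 ± 0.15, limma adjusted p = 0.0267). Markers of the list below the level tested did not all stand higher: Erg was at 0.28 and 0.12 RPKM in ZnF4-/-, 0.38 and 0.69 RPKM in ZnF1-/- and 0.9, 0.7 and 0.44 RPKM in wild type, and Cd34 at 0.36 and 0.19 RPKM in ZnF4-/-, 1.16 and 0.82 RPKM in ZnF1-/- and 0.66, 0.27 and 0.47 RPKM in wild type. Of B cell markers 3 of 8 were tested, and 1, Cd79b, fell in ZnF4-/- in the blocked fit. Their sums were 15.6 to 20.3 RPKM in ZnF4-/-, 27.2 to 36.5 RPKM in ZnF1-/- and 20.2 to 25.4 RPKM in wild type. In stroma, endothelium and epithelium, other sources of Nrp1, some markers were near 0 and others were not. Cdh5 was at 0.88 and 0.22 RPKM in ZnF4-/-, 0.52 and 0.39 RPKM in ZnF1-/- and 0.04 to 0.16 RPKM in wild type. Kdr was at no more than 0.15 RPKM, Pdgfra at 0, and Foxn1 and Krt5 at no more than 0.06 and 0.14 RPKM. The epithelial markers Epcam, Ccl25 and Ly75 were at 1.64 to 4.41, 1.98 to 3.28 and 3.41 to 4.93 RPKM over the 7 libraries. Pdgfrb, a pericyte receptor, was the 1 of 2 tested markers of stroma and endothelium that rose (1.43, limma adjusted p = 0.0452). Summed endothelial and stromal markers, most of it Pecam1, were at 43.8 to 46.1 RPKM in ZnF4-/-, 37.6 to 42.8 RPKM in ZnF1-/- and 31.0 to 43.9 RPKM in wild type. Epithelial markers summed to 41.3 to 44.6 RPKM in ZnF4-/-, 13.5 to 19.6 RPKM in ZnF1-/- and 16.8 to 23.6 RPKM in wild type, of which Cldn4, at 29.3 and 34.2 RPKM in ZnF4-/-, was the larger part there and the 1 of 4 tested that rose (1.73, limma adjusted p = 0.0347).

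Over the 7 libraries the tested genes most like Foxp3, by Pearson correlation of log2(RPKM + 0.5), were F5 (0.983), Trpm1 (0.981), Rgs16 (0.977), Acsl5 (0.971) and Fam102a (0.967). Rgs16, a regulator of G protein signalling, averaged 2.09 RPKM in ZnF4-/-, 0.88 RPKM in ZnF1-/- and 1.09 RPKM in wild type. The genes most like the mean of the 8 were Prg4 (0.990), Eno3 (0.990), Oxct1 (0.989), Adcy9 (0.989) and Tnfrsf1b (0.984). Prg4 averaged 11.6 RPKM in ZnF4-/-, 3.67 RPKM in ZnF1-/- and 3.12 RPKM in wild type. These correlations are over 7 libraries that share groups and batches and were the highest of 10498 genes, so they describe these libraries only.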

How the data were processed

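The authors deposited 1 table of RPKM for 16734 genes and 7 libraries of polyadenylated RNA. Per the submitters' processing notes, TopHat, bedtools and build mm9 were used. Per the series design text, SeqMonk quantified exonic reads with NCBI's annotation. Versions, strand and total reads are not given in the sources used here. Without strand, reads of overlapping antisense genes cannot be told apart.

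After log2(RPKM + 0.5), 10498 genes averaging 1 RPKM or more were tested in 1 fit of the 3 groups with limma 3.58.1 (lmFit, eBayes with a trend) in R 4.3.3, where the residual degrees of freedom were 4 (3 blocked) and the prior ones 3.26 (4.96 blocked). Tests were two-sided. Per the labels' protocols, replicate 1 had 76 bp reads, so the numbers pair the samples by batch. Deviations from the group means correlated at 0.489 to 0.737 across genes in the 8 same-number pairs between groups. The labels do not say whether replicates were separate animals. By Xist, replicate 1 of each group differed in sex from the other replicates and so came from other animals. For wild type 2A and 2B, which may share a source, the spread may be technical. Therefore p measures the spread between libraries, which mixes animals, sex and read length. The median change of all genes was between -0.05 and 0.01 in every comparison and scaling. Alternatives were the pseudocount, filter, scaling, trend, block and leaving out each library. The 8 members and all lists were chosen with earlier results of these data known. The rule for named genes was the 8, list genes called in either fit or among the 2 most abundant of a list, and the 5 most correlated; not all of those are printed, and other list genes were named after their values were seen. Of the listed symbols 1, Emcn, had no row in the table. One list gene is not reported here by name. Coordinates are from Gencode vM1 on NCBIM37.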

Additional observations from a re-analysis of the deposited data

Results flagged for a closer look

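Il2ra in ZnF1-/- against wild type went in opposite directions in the sequencing batches: the log2 difference was -0.25 in the 76 bp libraries, and 0.39 and 0.48 in the 50 bp ZnF1-/- library against wild type 2A and 2B. Icos in ZnF4-/- against ZnF1-/- was at -0.01 in the 76 bp and 0.22 in the 50 bp libraries. Neither difference between batches was tested.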

How the results depend on the processing

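In ZnF4-/- against wild type, 0 of 8 members were called without the block and 5 with it, where 2.54% and 8.22% of all genes were. The count was 2 with libraries scaled to a common median and 3 after quantile normalization, and 0 to 1 with a library left out. With the block it was 5 with wild type 2A and 2B averaged and 4 to 6 with a library left out. In ZnF4-/- against ZnF1-/- the count was 1 without the block, 4 with it, 2 under each scaling, 0 with 2A and 2B averaged, 0 to 1 with a library left out, and with the block 3 averaged and 2 to 5 with a library left out. In ZnF1-/- against wild type it was 0 to 1 with a library left out, the 1 being a lower Tnfrsf4 in the blocked fit without either ZnF4-/- library. For the scaled, averaged and left-out settings the share of all genes called was not recorded, so those counts cannot be set against it. Alternatives that join the block to another change were chosen after seeing the data. The cause of these differences was not tested, beyond the smaller spread of a fit that holds the batch.

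Of 576 alternative values for the 24 member comparisons, 18 had the other sign, all in results that were not called. In ZnF1-/- against wild type Tnfrsf18 was 0.053 with the block and 0.047 with 2A and 2B averaged in either fit. With a library left out it was -0.456 to 0.321 without the block, and with the block -0.015 to 0.116 (the positive values between being 0.011, 0.056, 0.056, 0.065 and 0.088). With a library left out and without or with the block, Foxp3 was -0.458 to 0.116 or -0.281 to 0.028, Il2ra -0.16 to 0.388 or -0.349 to 0.483, and Nrp1 -0.54 to -0.001 or -0.301 to 0.053. In ZnF4-/- against ZnF1-/- Icos was -0.058 to 0.27 or -0.108 to 0.32. Among 95 results of other genes 1 reversed: Bst2 in ZnF4-/- against wild type was -0.055 to 0.713 without the block. Depth limits the 76 bp ZnF4-/- library most, at 6.31 M reads.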

Other observations

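Several list genes under the level tested stood apart in ZnF4-/- thymus. Klrg1, a receptor of effector and some regulatory T cells, was at 0.93 and 0.91 RPKM in ZnF4-/-, at 0 and 0.03 RPKM in ZnF1-/- and at 0.11, 0.05 and 0.04 RPKM in wild type. Il1rl1, the receptor of interleukin 33, was at 0.5 and 0.63 RPKM in ZnF4-/-, at 0.03 and 0.05 RPKM in ZnF1-/- and at 0.03 to 0.08 RPKM in wild type. Eomes, a transcription factor of cytotoxic lymphocytes, was at 1.7 and 2.66 RPKM in ZnF4-/-, at 0.23 and 0.18 RPKM in ZnF1-/- and at 0.21 to 0.4 RPKM in wild type. In each case both ZnF4-/- libraries were above all others, and no test was made. These genes were chosen after their values were seen.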
